A study of Arabidopsis thaliana with 8 samples.

Results

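TBL34, AT4G08160 and AT5G15050 are 3 Arabidopsis genes for proteins that act on the glycans of the plant cell wall, and each is represented on the array by 1 probe set. They were chosen because earlier work on these data had shown their signals to rise with estradiol in at least 1 line. The table of probe sets names 13286 genes of the reference, and the array holds 22746 probe sets outside its controls. All 3 members passed the filter on low signal, as did 14768 probe sets in all.

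Signals were measured on 8 Affymetrix arrays, 2 in each of 4 groups, with total RNA of protoplasts, plant cells whose walls have been removed. The groups were VND7XVE cells given cycloheximide with estradiol (VND7XVE estradiol), VND7XVE cells given cycloheximide alone (VND7XVE control), SND1XVE cells given cycloheximide with estradiol (SND1XVE estradiol) and SND1XVE cells given cycloheximide alone (SND1XVE control). VND7XVE and SND1XVE are forms of the NAC transcription factors VND7 and SND1 whose activity estradiol is meant to switch on, and cycloheximide, which every group received, blocks protein synthesis. The comparison of estradiol with control asks which genes each factor activates directly. Estradiol was given only together with a factor, and the effect of the hormone and that of the factors cannot be told apart. The labels give neither the tissue behind the protoplasts nor the promoter that drives the factors. They do not say whether the 2 arrays of a group stand for separate cultures, and the p-values then reflect only the variation among these arrays, possibly of technical origin.

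Xylan is the main hemicellulose of secondary walls, the thick inner walls of fibres and of the water-conducting vessels. Its xylose backbone carries acetyl groups and glucuronic acid, and the pattern of the acetyl groups is known to govern how xylan lies against cellulose. TBL34 belongs to the TRICHOME BIREFRINGENCE-LIKE family of wall O-acetyltransferases and adds acetyl groups to xylan. AT4G08160, also called ATXYN3, belongs to a family of xylanases, enzymes that cut the xylan backbone. AT5G15050, also called GlcAT14B, encodes a glucuronosyltransferase that adds glucuronic acid to the galactan side chains of arabinogalactan proteins, which are glycoproteins of the cell surface and wall. VND7 is known as a switch of vessel formation, and SND1 as a switch of wall thickening in fibres.

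Median signals of the arrays were close but followed the treatment, at 108.3 to 109.9 intensity units with estradiol and 98.95 to 102 in controls. Log2 signals of the arrays of a group correlated at 0.982 to 0.988. Of 17 cell type markers looked for, the tables named probe sets for 3. RCA, the activase of the carbon-fixing enzyme Rubisco, had signals between 2537.1 and 2762.9 on VND7XVE arrays and between 2191.6 and 2498.9 on SND1XVE arrays. LHCB4.1, a protein of the light-harvesting antenna, had signals between 5177.7 and 5600 on VND7XVE arrays and between 2559.4 and 2934.6 on SND1XVE arrays. FMA, a regulator of guard cells, lay between 94.7 and 118.3 in SND1XVE control and between 49.1 and 82.9 in the other groups. No marker of phloem or of xylem vessels was named, so the share of such cells was not tested. As a measure of RNA integrity, the ratio of 3' to 5' actin signal was 4.64 and 3.98 in VND7XVE estradiol, 3.72 and 4.16 in VND7XVE control, 3.3 and 3.21 in SND1XVE estradiol and 2.8 and 2.87 in SND1XVE control, so it was higher in VND7XVE and, within SND1XVE, higher with estradiol. The same ratio of GAPDH overlapped between the lines, at 0.946 to 1.02 on VND7XVE arrays and 0.939 to 1.08 on SND1XVE arrays. In bulk RNA, fewer cells that respond and less RNA per cell cannot be told apart.

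TBL34, the xylan acetyltransferase gene, was near the bottom of the array in VND7XVE controls and far above the median with estradiol. Its signal was 789.7 and 851.2 intensity units on the VND7XVE estradiol arrays, against 4.2 and 5.8 on the VND7XVE control arrays. In SND1XVE cells it was 73.4 and 81.2 with estradiol, against 6.2 and 28.9 in controls. The arrays of the estradiol groups thus lay above those of their controls without overlap in both lines, as 25.1% of all tested probe sets did in VND7XVE and 27.9% in SND1XVE, and the VND7XVE estradiol arrays stood above all others. On the VND7XVE estradiol arrays TBL34 exceeded 80.5% and 81.5% of all probe sets, against 9.7% and 15.6% on the VND7XVE control arrays. On the SND1XVE estradiol arrays it exceeded 45.3% and 46.3%, so that even with estradiol it stayed below the array median there, against 15.8% and 29.8% on the SND1XVE control arrays. The mean signal with estradiol was 820.4 ± 43.49 in VND7XVE and 77.3 ± 5.515 in SND1XVE (SD, n = 2 arrays each), which puts SND1XVE at 9.42% of VND7XVE.

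AT4G08160, the xylanase gene, was high in 1 group alone. Its signal was 1793.0 and 1844.4 on the VND7XVE estradiol arrays, against 24.2 and 5.0 on the VND7XVE control arrays. In SND1XVE cells it was 37.2 and 40.5 with estradiol, against 2.5 and 57.3 in controls. The SND1XVE estradiol arrays therefore lay between their own 2 controls, which differed 22.9-fold, whereas the VND7XVE estradiol arrays differed 1.03-fold from each other. With VND7XVE and estradiol the gene exceeded 90.7% and 90.9% of the probe sets of the array. On the other 6 arrays it exceeded between 6.7% and 42.1%. Its mean with estradiol was 1819 ± 36.35 in VND7XVE and 38.85 ± 2.333 in SND1XVE (SD, n = 2 arrays each), where both arrays were below the 40th percentile.

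AT5G15050, the glucuronosyltransferase gene, was high with estradiol in both lines. Its signal was 1396.9 and 1398.9 on the VND7XVE estradiol arrays, against 14.0 and 57.6 on the VND7XVE control arrays. In SND1XVE cells it was 2698.4 and 2061.0 with estradiol, against 61.1 and 87.9 in controls. The estradiol arrays of each line lay more than 20-fold above every control array of that line, and the VND7XVE estradiol arrays lay below the SND1XVE ones, as for 36.2% of all tested probe sets. The gene exceeded 88.1% and 88% of probe sets on the VND7XVE estradiol arrays and 94% and 92.1% on the SND1XVE estradiol arrays. With estradiol the SND1XVE mean, 2380 ± 450.7, was 170% of the VND7XVE mean, 1398 ± 1.414 (SD, n = 2 arrays each), the reverse of the order seen for the other two genes.

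**Figure D1:**
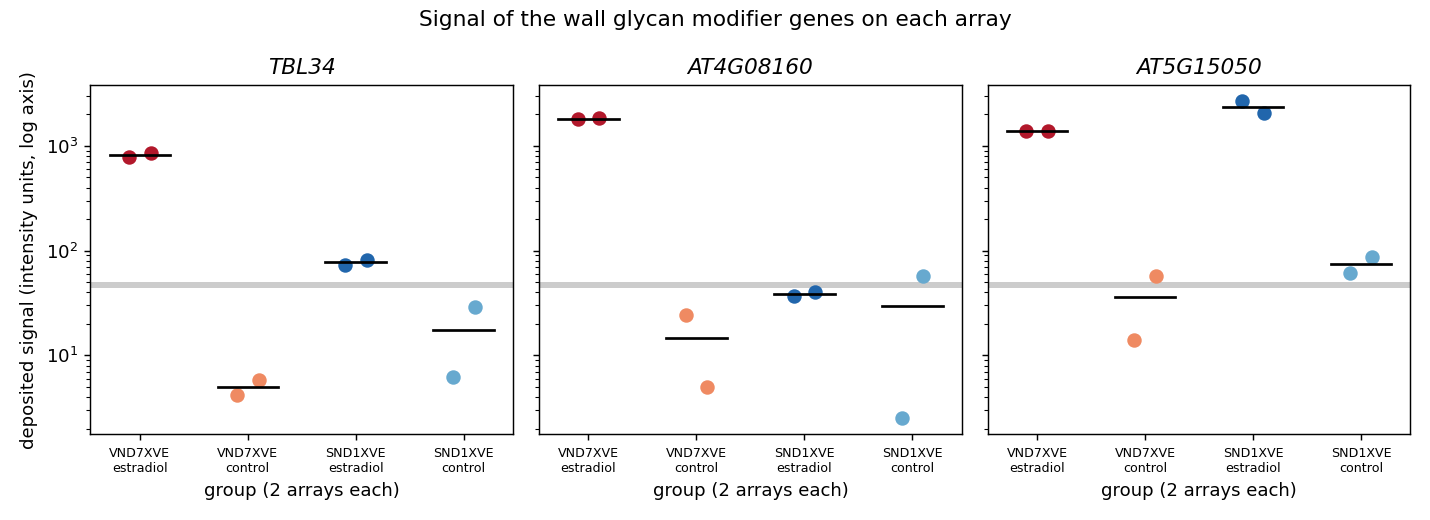
Signal of each gene on every array in intensity units on a log axis, by group, where points are arrays, black lines are group means of 2 arrays and the grey band spans the 40th percentile of the 8 arrays (44.5 to 50.4). TBL34 and AT4G08160 are highest on the VND7XVE estradiol arrays, and AT5G15050 is high on the estradiol arrays of both lines.

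Ordered by mean signal, TBL34 ran from VND7XVE estradiol (820.4) through SND1XVE estradiol (77.3) and SND1XVE control (17.55) to VND7XVE control (5.0), with no overlap between neighbouring groups. Between the controls such an order was common, as 31.2% of all tested probe sets had both VND7XVE arrays below both SND1XVE arrays. The controls of TBL34 were close on this scale, since the lower SND1XVE control array, 6.2, was next to the higher VND7XVE one, 5.8. AT4G08160 ran from VND7XVE estradiol (1819) through SND1XVE estradiol (38.85) and SND1XVE control (29.9) to VND7XVE control (14.6). Of these only the VND7XVE estradiol group stood clear of its neighbour: the SND1XVE control arrays span both of the groups next to them. AT5G15050 ran from SND1XVE estradiol (2380) through VND7XVE estradiol (1398) and SND1XVE control (74.5) to VND7XVE control (35.8), again with no overlap between neighbours. Its order of the controls is the common one given above. Separation of the estradiol groups was common too. VND7XVE lay above SND1XVE without overlap for 29.2% of all tested probe sets, as for TBL34 and AT4G08160, and below it for 36.2%, as for AT5G15050. Levels of different genes were not set against each other, because each comes from its own probe set.

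Differences were taken on log2(signal + 16), where adding 16 damps changes among very low signals and so understates rises from them. For the 3 genes the estradiol differences are descriptions with no test, because those differences are what chose the genes. In VND7XVE, estradiol minus control was 5.32 ± 0.33 for TBL34, 5.98 ± 0.46 for AT4G08160 and 4.91 ± 0.29 for AT5G15050 (moderated SE, n = 2 arrays per group). These ranked 33, 22 and 43 among the 14768 probe sets ordered by their rise in that line. In SND1XVE the differences were 1.56 ± 0.33 for TBL34, 0.57 ± 0.46 for AT4G08160 and 4.73 ± 0.29 for AT5G15050, with ranks of 261, 1387 and 13. AT4G08160 had the widest SE of the 3, and its SND1XVE control arrays differed 22.9-fold, against 4.66-fold for TBL34.

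The SND1XVE differences of TBL34 and AT4G08160 rested on the 2 SND1XVE control arrays. For AT4G08160 the difference was -0.42 without SND1XVE control replicate 1 and 1.57 without replicate 2, so its direction depended on which control was kept. For TBL34 it was 1.05 without SND1XVE control replicate 1 and 2.07 without replicate 2. The VND7XVE difference of AT5G15050 was 4.26 without VND7XVE control replicate 1 and 5.56 without replicate 2. All 3 VND7XVE differences stayed above 4 whichever array was left out.

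The VND7XVE difference exceeded the SND1XVE difference by 3.75 ± 0.46 for TBL34 and by 5.41 ± 0.65 for AT4G08160, and for AT5G15050 the gap was 0.18 ± 0.40 (moderated SE, n = 2 arrays per group). The gap of AT5G15050 changed sign, to -0.47, without VND7XVE control replicate 1 and was 0.83 without VND7XVE control replicate 2. Between the estradiol groups themselves, VND7XVE minus SND1XVE was 3.16 ± 0.33 for TBL34, 5.06 ± 0.46 for AT4G08160 and -0.75 ± 0.29 for AT5G15050. The VND7XVE arrays lay above the SND1XVE ones without overlap for TBL34 and AT4G08160, as for 29.2% of all tested probe sets. The lines also differed in the LHCB4.1 and RCA signals and the actin ratio given above, and the part of these in the gaps between lines was not tested.

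**Figure D2:**
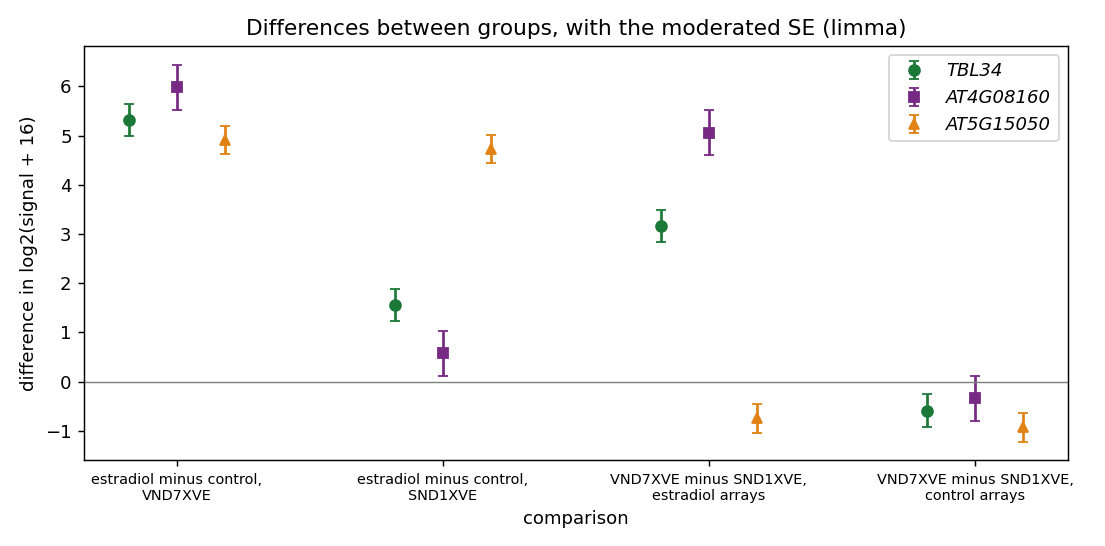
Differences in log2(signal + 16) for the 3 genes in 4 comparisons, as points with the moderated SE (limma, 2 arrays per group). TBL34 and AT4G08160 stand at 5.32 and 5.98 in VND7XVE and at 1.56 and 0.57 in SND1XVE, and AT5G15050 at 4.91 and 4.73.

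The genes were not chosen by comparing the control arrays of the lines, but those arrays are the baseline of the rises that chose them. A choice by rise favours low control values, so the p-values of this comparison are not free of the choice. AT5G15050 was lower in VND7XVE controls than in SND1XVE controls, with 14.0 and 57.6 against 61.1 and 87.9 intensity units, a difference of -0.93 ± 0.29 on the log2(signal + 16) scale that passed the threshold (limma, adjusted p = 0.0233 over all tested probe sets). The arrays did not overlap, with VND7XVE lower, but the higher VND7XVE control array, 57.6, and the lower SND1XVE one, 61.1, were nearly level. The call was lost without VND7XVE control replicate 1 (-0.28, limma adjusted p = 0.391) and without SND1XVE control replicate 2 (-0.71, limma adjusted p = 0.176), and the difference was -1.58 without VND7XVE control replicate 2. Across the array 27.5% of all tested probe sets were called between these controls, and 13.8% were called lower in VND7XVE, so a call in this comparison was common.

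TBL34 lay below the 40th percentile on all 4 control arrays and AT4G08160 on 3 of them, and without the estradiol arrays neither would have passed the filter on low signal. Their control values are thus near the floor of the array, and the values that follow say little about a difference there. VND7XVE minus SND1XVE was -0.59 ± 0.33 for TBL34 (limma, adjusted p = 0.201), with a 95% interval of -1.28 to 0.10. It was -0.34 ± 0.46 for AT4G08160 (limma, adjusted p = 0.632), with a 95% interval of -1.31 to 0.63. Neither passed the threshold, and these data do not show the lines to be alike without estradiol. Leaving out 1 control array leaves 1 array in that group, which is then assumed to vary like the other groups. Without SND1XVE control replicate 1 the difference was -1.10 for TBL34, from arrays that are all below the 40th percentile, and -1.34 for AT4G08160. The latter rests on the 1 SND1XVE control array left, 57.3, the only control array of AT4G08160 above that percentile. The difference of AT4G08160 changed sign without SND1XVE control replicate 2 (0.65) and without VND7XVE control replicate 2 (0.13).

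**Figure D3:**
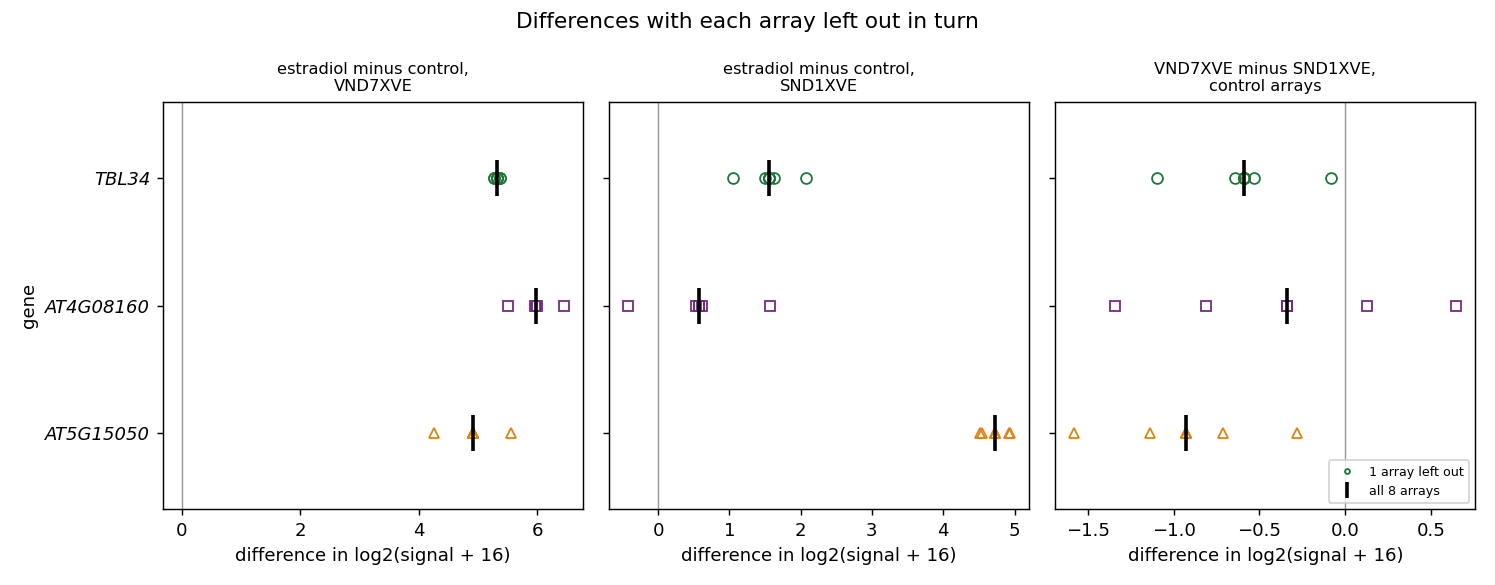
Differences in log2(signal + 16) with all 8 arrays (black bars) and with each array left out in turn (open symbols) for the 3 genes. In SND1XVE the estradiol difference of AT4G08160 spans -0.42 to 1.57, whereas that of AT5G15050 spans 4.51 to 4.94.

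Relatives of TBL34 were set beside it. A list of wall O-acetylation genes held the TBL family, TRICHOME BIREFRINGENCE itself (AT5G06700), the RWA genes and AT3G03210, 51 in all. The tables named a probe set for 25 of them, with none for the RWA genes, which supply acetyl groups to the Golgi, and 13 besides TBL34 passed the filter. In VND7XVE 1 of the 13 rose and 0 fell, where 8.15% of all tested probe sets rose and 6.37% fell, and the median difference was 0.02 against -0.032 for all tested probe sets. In SND1XVE 2 rose and 0 fell, where 9.37% of all tested probe sets rose and 7.06% fell, with a median of 0.16 against 0.015.

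The riser in VND7XVE was TBL45, with signals of 173.3 and 213.0 with estradiol, against 58.6 and 67.4 in controls. Its difference was 1.40 ± 0.36 (limma, adjusted p = 0.0134), and in SND1XVE its value was -0.01. This call was lost when any 1 of the VND7XVE arrays was left out (limma, adjusted p = 0.0532 to 0.145), with no filter (0.0647) and with no limma trend (0.0592). The risers in SND1XVE were TBL37, at 0.66 ± 0.11 (limma, adjusted p = 0.000367), and TBL18, at 0.51 ± 0.13 (limma, adjusted p = 0.0104), and their values in VND7XVE were 0.26 and 0.01. TBL37 had signals of 3100.2 and 2730.4 with estradiol in SND1XVE, against 1730.7 and 1956.0 in controls. TBL18 had 461.6 and 434.3, against 306.9 and 311.5 in controls, and the VND7XVE controls already had 442.8 and 447.7. Between controls, VND7XVE minus SND1XVE was -0.65 ± 0.11 for TBL37 (limma, adjusted p = 0.000293) and 0.50 ± 0.13 for TBL18 (limma, adjusted p = 0.00797). Of all tested probe sets, 27.5% were called there. The call of TBL18 was lost without SND1XVE estradiol replicate 1 (limma, adjusted p = 0.0756). The VND7XVE minus SND1XVE gap in the estradiol effect did not pass the threshold for TBL45 (1.41 ± 0.51, limma adjusted p = 0.197), TBL37 (-0.40 ± 0.15, limma adjusted p = 0.232) or TBL18 (-0.50 ± 0.18, limma adjusted p = 0.201), where 3.06% of all tested probe sets passed.

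TBL35, known to share with TBL34 the acetylation of xylan, did not pass the filter on low signal. It had 36.1 and 25.4 intensity units with estradiol in VND7XVE, against 21.0 and 42.7 in controls. In SND1XVE it had 41.8 and 22.4 with estradiol, against 32.5 and 42.7 in controls. The groups overlapped in both lines. TBL32, another xylan acetyltransferase gene, had 433.7 and 374.1 with estradiol in VND7XVE, against 250.2 and 371.2 in controls, and its difference of 0.38 ± 0.18 did not pass the threshold (limma, adjusted p = 0.191). Its probe set is of a type that several related transcripts can bind. In SND1XVE its value was -0.21 ± 0.18 (limma, adjusted p = 0.499).

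Of the xylan hydrolases, 9 genes were listed, 4 had a named probe set and 1 besides AT4G08160 passed the filter. This was AT1G10050 (ATXYN2), another xylanase gene. It had 1450.5 and 1429.1 with estradiol in VND7XVE, against 1043.3 and 1218.9 in controls, a difference of 0.35 ± 0.12 that did not pass the threshold (limma, adjusted p = 0.0677). In SND1XVE it had 1769.8 and 1582.3 with estradiol, against 1064.6 and 1275.6 in controls, and rose by 0.52 ± 0.12 (limma, adjusted p = 0.00642). That call was lost without SND1XVE control replicate 1 (limma, adjusted p = 0.075), without SND1XVE estradiol replicate 1 (limma, adjusted p = 0.072) and without the limma trend (0.066). The xylanase genes AT2G14690 (ATXYN4) and AT4G00890 (ATXYN5) did not exceed 21.8 and 21.4 on any array and were not tested.

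Around AT5G15050, a list of 18 genes for the glycosylation of arabinogalactan proteins had 10 with a named probe set, of which 7 besides AT5G15050 were tested. In VND7XVE 0 of the 7 rose and 1 fell, where 8.15% of all tested probe sets rose and 6.37% fell. The median was 0.23, against -0.032 for all tested probe sets. In SND1XVE 2 rose and 1 fell, where 9.37% of all tested probe sets rose and 7.06% fell, with a median of 0.39 against 0.015. AT5G39990 (GlcAT14A), its relative in the same enzyme family, had 277.9 and 305.3 with estradiol in SND1XVE, against 193.5 and 163.8 in controls, and rose by 0.66 ± 0.20 (limma, adjusted p = 0.0313). This call was lost without SND1XVE control replicate 2 (limma, adjusted p = 0.169) or either SND1XVE estradiol array (0.0907 and 0.156), and also after quantile normalization (0.0768), after median centring (0.0609), with no filter (0.103) and with no limma trend (0.102), and it held under 11 of 18 alternatives. In VND7XVE the same gene had 165.8 and 266.6 with estradiol, against 175.6 and 188.9 in controls, so that the groups overlapped (0.19 ± 0.20, limma adjusted p = 0.62). AT2G37585 (GlcAT14C) stayed between 6.3 and 50.4 on all arrays and was not tested. The other riser in SND1XVE was AT1G74800, at 0.60 ± 0.20 (limma, adjusted p = 0.0484), a call lost when any 1 of the SND1XVE arrays was left out (limma, adjusted p = 0.0724 to 0.269), which held under 4 of 17 alternatives in all. AT1G27930 fell in both lines, to 654.8 and 933.7 with estradiol in VND7XVE, against 1138.5 and 1148.4 in controls, and to 695.1 and 727.9 in SND1XVE, against 985.9 and 1025.0 in controls. Its differences were -0.54 ± 0.14 in VND7XVE (limma, adjusted p = 0.0145) and -0.49 ± 0.14 in SND1XVE (limma, adjusted p = 0.0231). Each was lost in turn: in VND7XVE without either control array or estradiol replicate 1 (limma, adjusted p = 0.0915 to 0.272) and in SND1XVE without any 1 of its 4 arrays (limma, adjusted p = 0.0633 to 0.122). Without the limma trend both calls were lost (0.109 in VND7XVE and 0.125 in SND1XVE), as was that in SND1XVE without the filter (0.0619).

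Of the 24 listed genes of xylan synthesis, 6 had a named probe set and all 6 were tested. In VND7XVE 2 rose and 1 fell, with a median difference of 0.11, where 8.15% of all tested probe sets rose and 6.37% fell. In SND1XVE 3 rose and 0 fell, with a median of 0.43, where 9.37% of all tested probe sets rose and 7.06% fell. The lists were chosen with earlier results of these data known, so these counts and the p-values that follow are not free of that choice. IRX15, needed for normal xylan, rose by 4.87 ± 0.22 in VND7XVE (limma, adjusted p = 1.09e-10) and by 4.80 ± 0.22 in SND1XVE (limma, adjusted p = 3.51e-10). IRX10 (GUT2), which takes part in making the xylan backbone, rose by 2.94 ± 0.14 in VND7XVE (limma, adjusted p = 2.05e-10) and by 2.68 ± 0.14 in SND1XVE (limma, adjusted p = 1.34e-09). As for AT5G15050, the gap between the lines was small beside the rises, at 0.06 ± 0.32 for IRX15 and 0.26 ± 0.20 for IRX10. IRX15-L, the close relative of IRX15, fell by 0.78 ± 0.15 in VND7XVE (limma, adjusted p = 0.00177). Its value in SND1XVE was -0.42 ± 0.15 (limma, adjusted p = 0.0745), and the gap between the lines did not pass the threshold (-0.36 ± 0.22, limma adjusted p = 0.525). AT2G30460 rose by 0.53 ± 0.17 in SND1XVE (limma, adjusted p = 0.041), and its value in VND7XVE was -0.08. This call was lost when any 1 of the SND1XVE arrays was left out, and it held under 8 of 18 alternatives in all. Its gap between the lines did not pass the threshold either (-0.61 ± 0.24, limma adjusted p = 0.244). The gaps of TBL34 and AT4G08160 between the lines lay outside the range of all 27 tested list genes. This comparison is a description, since the genes were chosen for their rises.

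**Figure D4:**
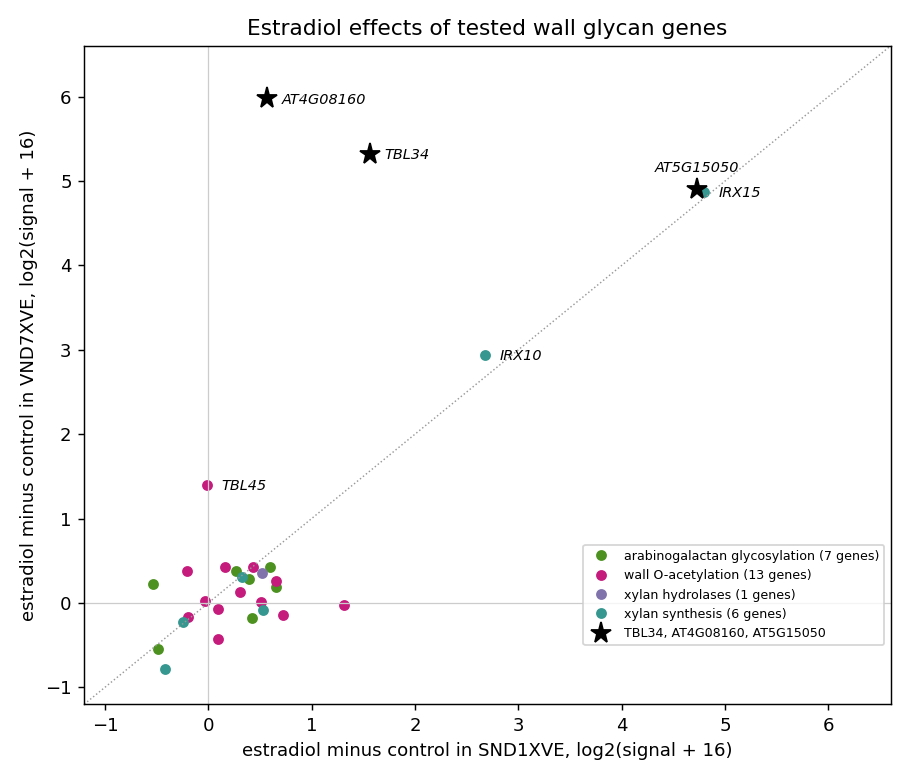
Estradiol minus control in VND7XVE against the same in SND1XVE, in log2(signal + 16), for the 27 tested genes of the wall glycan lists and for TBL34, AT4G08160 and AT5G15050 (stars), where the dotted line marks equal differences. TBL34 and AT4G08160 lie far above the line, AT5G15050 lies close to it beside IRX15, and most list genes lie near 0 in both lines.

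The genes with profiles most like each of the 3 were found among 8057 tested probe sets that name 1 gene, by Pearson's r of log2(signal + 16) over the 8 arrays. These correlations are descriptions: the arrays fall into groups, and r ignores the size of a change. For TBL34 the most similar were AT1G13470 (r = 0.993), AT5G52820, the NOTCHLESS gene (0.992), AT1G03400 (0.988) and AT1G69680 (0.988). AT1G13470 also had differences of a size like those of TBL34, 5.69 ± 0.21 in VND7XVE and 2.11 ± 0.21 in SND1XVE, while those of AT5G52820 were 1.04 ± 0.10 and 0.21 ± 0.10.

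For AT4G08160 the most similar were AT5G26330 (r = 0.987), AT2G41610 (0.985), AT2G14095 (0.983) and AT2G01300 (0.978). Their differences in VND7XVE were 2.84 ± 0.42, 1.37 ± 0.32, 3.82 ± 0.45 and 1.49 ± 0.18, and all were smaller than that of AT4G08160. In SND1XVE their values were 0.36 ± 0.42, 0.2 ± 0.32, 0.31 ± 0.45 and -0.07 ± 0.18 (moderated SE). Outside VND7XVE estradiol, signals were 3.4 to 32.6 for AT5G26330, 28.2 to 48.5 for AT2G41610 and 3.7 to 22.7 for AT2G14095. Each was below the percentile of its array that the filter on low signal used, whereas AT2G01300 had 121.4 to 151.9. For AT5G26330, AT2G41610 and AT2G14095, r thus rests largely on the VND7XVE estradiol arrays, and their SND1XVE values say little. For AT5G15050 the most similar were AT1G23030 (r = 0.995), AT3G51670 (0.990), AT5G49060 (0.989) and AT1G53760 (0.988). AT1G23030 had differences of 2.46 ± 0.16 in VND7XVE and 2.19 ± 0.16 in SND1XVE. Among the 3 genes themselves r was 0.959 between TBL34 and AT4G08160, 0.769 between TBL34 and AT5G15050, and 0.567 between AT4G08160 and AT5G15050. The number of probe sets with r above 0.98 was 10 for TBL34, 3 for AT4G08160 and 10 for AT5G15050.

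**Figure D5:**
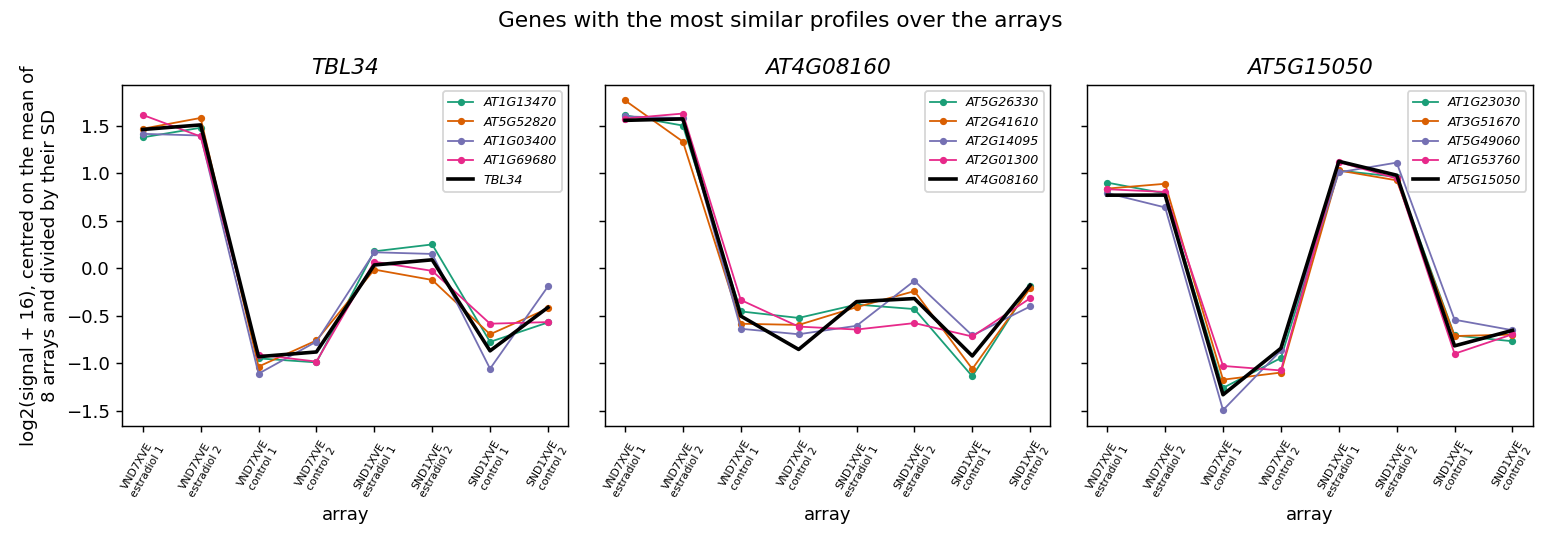
Profiles of the 3 genes (black) and of the 4 genes most like each over the 8 arrays, as log2(signal + 16) centred on the mean of 8 arrays and divided by their SD. The TBL34 and AT4G08160 sets peak on the VND7XVE estradiol arrays, with TBL34 also raised on the SND1XVE estradiol arrays, and the AT5G15050 set peaks on the estradiol arrays of both lines.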

How the data were processed

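Per the labels, total RNA was labelled with biotin by an Affymetrix 1-cycle kit, and the deposited values are array intensities from GCOS per the submitters' processing notes (version and settings not given in the sources used here). The 2% trimmed means of the arrays were 500.0 or 500.1, so the intensities the authors deposited had been scaled, and they were used as deposited. Probe sets were named from the platform's annotation table, with symbols from RefSeq (13513 name 1 gene, 503 several, 8730 are not listed); no sequence or coordinate was used here. Of several probe sets of a listed gene, the one with the higher mean was taken.

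Signals were transformed to log2(signal + 16). Tests covered the 14768 probe sets whose signal passed the array's 40th percentile on 2 or more arrays; TBL34 exceeded it on 4 arrays, AT4G08160 on 3 and AT5G15050 on 7. The means of 4 groups were fitted with limma 3.58.1 in R 4.3.3 (eBayes with trend, 4 residual degrees of freedom, two-sided, Benjamini-Hochberg over all tested probe sets, threshold 0.05). The procedure was tested on simulated data. The number of arrays limits the precision. Members and lists were chosen with earlier results of these data known. Genes named are the members, the 4 most similar to each, up to 4 called genes per list and direction without overlap, and measured GlcAT14, RWA and xylanase genes; TBL35, TBL32, AT2G14690, AT4G00890 and other background genes were named for their known relation. Plots used matplotlib 3.10.9 and pandas 2.3.3 under Python 3.11.15.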

Additional observations from a re-analysis of the deposited data

How the results depend on the processing

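The genes were chosen for their rises, so a kept direction is no test of them. The VND7XVE rises of TBL34, AT4G08160 and AT5G15050 kept their direction under all 18 alternatives each. With a pseudocount of 1 they were 7.11, 7.21 and 5.56, and with 64 they were 3.68, 4.59 and 3.91; leaving out 1 array gave 5.51 to 6.45 for AT4G08160 and 4.26 to 5.56 for AT5G15050. In SND1XVE a pseudocount of 1 gave 2.41 for TBL34 and 1.48 for AT4G08160, a pseudocount of 64 gave 0.81 for TBL34 and 4.14 for AT5G15050, and leaving out 1 array gave 1.05 to 2.07 for TBL34 and -0.42 to 1.57 for AT4G08160, which could not be tested with only the SND1XVE arrays because it then failed the filter. The gap between the lines was 4.69 (TBL34) and 0.57 (AT5G15050) with a pseudocount of 1, and 2.87, 4.40 and -0.23 with 64. Leaving out 1 array gave 3.25 to 4.26, 4.41 to 6.40 and -0.47 to 0.83. Between the estradiol groups a pseudocount of 64 gave 2.65 for TBL34 and 4.19 for AT4G08160. The call of AT5G15050 between the controls (-0.93) held under 12 of 17 alternatives, with adjusted p from 0.000151 to 0.391, and was lost without the filter (0.1), without the limma trend (0.145) and with robust estimation (0.082). Without 1 array it ranged over -1.58 to -0.28, TBL34 over -1.10 to -0.08 and AT4G08160 over -1.34 to 0.65. The cause was not tested for any of these changes. Of the 27 tested list genes, 8 (29.6%) rose in SND1XVE, where 9.37% of all tested probe sets did, against 5 after quantile normalization, median centring, without the filter or without the trend, and 3 to 8 without 1 array. Those that fell in SND1XVE numbered 1, where 7.06% of all tested probe sets fell. They numbered 2 after quantile normalization or centring and 0 without the filter or the trend. In VND7XVE 3 of the 27 (11.1%) rose, where 8.15% of all tested probe sets did. There 2 fell, where 6.37% of all tested probe sets did, against 1 without the trend. Probe sets called numbered 2427 in SND1XVE, 2144 in VND7XVE and 452 for the gap, against 1584, 1326 and 226 without the trend and 291 for the gap without the filter. Without 1 array they numbered 1608 to 2296, 1237 to 2254 and 202 to 446, with 2948 to 4801 between the estradiol groups and 2570 to 4100 between the controls. Same-numbered arrays of different groups did not deviate together (r from -0.031 to 0.024). These values show no large shared deviation by number, but they cannot show whether the arrays were prepared as pairs. With the replicate number as a block, 2457 and 2169 probe sets were called in SND1XVE and VND7XVE, the control difference of AT5G15050 kept its call (adjusted p = 0.0167), and only that of AT1G74800 was lost among the list genes (0.0573). Low signal limits the control values of TBL34 and AT4G08160 and the SND1XVE estradiol values of AT4G08160.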
